A study of Mus musculus with 16 samples.

Results

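The 10 genes described here are 7 ubiquitin ligases linked to muscle atrophy (Fbxo32, Trim63, Fbxo30, Fbxo31, Fbxo40, Trim54 and Trim55) and 3 Foxo transcription factors (Foxo1, Foxo3 and Foxo4). They were taken by symbol, and their rows were found in the table of 29730 genes through the Ensembl identifier and the GENCODE annotation of GRCm38. The tissue was tibialis anterior, a shin muscle, of 16 male C57BL/6N mice aged 7 weeks. Wild-type mice received saline (WT_PBS) or the antisense oligonucleotide ASO1 (WT_ASO), and mice with the genotype Bin1mck-/- received saline (KO_PBS) or ASO1 (KO_ASO), with 4 samples in each of the 4 groups. The knockout models recessive centronuclear myopathy, the series title gives Dnm2 as the transcript that the oligonucleotide lowers, and the sources used here give neither the dose and schedule nor the deleted part of Bin1. Nothing in the labels states that the samples are separate animals. Each was taken as 1 mouse, and P values measure the spread between these samples.

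Skeletal muscle loses protein when breakdown outpaces synthesis. Much of that breakdown runs through ubiquitin ligases, which tag proteins for the proteasome, and the genes of MAFbx (Fbxo32) and MuRF1 (Trim63) are the best known transcripts that rise in wasting muscle. Insulin and IGF1 act through Akt to keep Foxo factors out of the nucleus, and Foxo factors that enter it switch on Fbxo32 and Trim63. Myogenin, glucocorticoid receptor and inflammatory signals act on the same genes.

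The libraries held 27.6 to 40.9 M counts, and the members were counted with 440 to 19574 reads in a sample. Counting error weighs more at the lower counts, and its part in the spread between mice was not tested. Bin1 in KO_PBS was at 9.08% of its WT_PBS level in CPM (read counts scaled to a common library size by TMM, the trimmed mean of M values), and Dnm2 after the oligonucleotide was at 45.7% of the saline level in wild-type and 39.4% in knockout mice, although Dnm2 overlaps Tmed1 on the opposite strand. The summed level of 8 muscle fibre markers was 146000 to 176000 CPM in WT_PBS, 146000 to 203000 in WT_ASO, 128000 to 133000 in KO_PBS and 130000 to 153000 in KO_ASO. Of these 8, 1 was called higher and 1 lower in KO_PBS than in WT_PBS. The sum of 8 macrophage markers was 44.0 to 71.2 CPM in WT_PBS, 43.2 to 95.1 in WT_ASO, 111 to 341 in KO_PBS and 48.0 to 70.7 in KO_ASO, and 7 of the 8 were called higher in KO_PBS than in WT_PBS and 5 of the 8 lower in KO_ASO than in KO_PBS. No marker of the 7 cell type lists used had a level of 0 in any group.

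In WT_PBS, Trim54 had the highest level per length, at 279 ± 23.4 CPM per kb of merged exon (SD, n = 4). It was followed by Trim63 (92.3 ± 6.47 CPM per kb), Fbxo40 (78.6 ± 3.83), Foxo4 (57.9 ± 3.25), Fbxo32 (33.3 ± 11.4), Trim55 (31.1 ± 2.38) and Fbxo31 (27.7 ± 3.02). Foxo3 (3.93 ± 0.324), Foxo1 (3.75 ± 1.05) and Fbxo30 (3.55 ± 0.377) were the lowest. The ranges of Fbxo32 and Trim55, of Trim55 and Fbxo31, of Foxo3 and Foxo1, and of Foxo1 and Fbxo30 overlapped, so these neighbours were not ordered by the 4 mice, whereas the other neighbours did not overlap. Foxo4 was therefore the most abundant of the 3 Foxo transcripts in this muscle by a wide margin on the per-length scale.

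The genotype was examined in saline-treated mice. In KO_PBS, Trim63 rose 1.61-fold over WT_PBS and was the 1 member of 10 called by edgeR at an adjusted P value under 0.05, where 12.6% of the 14960 genes tested were called (7.43% higher and 5.12% lower). The calls over all genes, 1878 in number, fell to 1005 without KO_PBS replicate 1, to 1082 without WT_PBS replicate 4 and to 1237 without WT_PBS replicate 2. In bulk muscle, fewer cells of a type and less RNA per cell cannot be told apart, and the part of the macrophage and fibre marker shifts in these values was not tested. Fbxo32 was 1.45-fold higher on average but did not pass the test. Trim54 and Foxo4, at 0.792 and 0.765 of their WT_PBS levels, lay below WT_PBS in all 4 mice without passing it. The fitted change was positive for 5 members and negative for 5, with a median log2FC of 0.05, beside -0.01 over all genes. Without adjustment, 4 of the 10 had a P value under 0.05, beside 27.3% of all genes. The 2 groups did not overlap for 5 of 10 members (Fbxo32, Trim63 and Foxo3 higher, Trim54 and Foxo4 lower), beside 20.4% of all genes.

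Trim63 (ENSMUSG00000028834, chromosome 4, 134315120 to 134329629, plus strand) encodes MuRF1, a RING-finger ligase of the sarcomere that acts on thick-filament proteins. It was one of the 7 members with a sequence before the transcription start among the RefSeq promoters of GRCm38.p6, and that of its close relative Trim54 is shown beside it because the fitted changes of the pair had opposite signs. Each line gives 250 bases on the plus strand, and capitals mark motif matches.

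Trim63 chr4:134314870-134315119: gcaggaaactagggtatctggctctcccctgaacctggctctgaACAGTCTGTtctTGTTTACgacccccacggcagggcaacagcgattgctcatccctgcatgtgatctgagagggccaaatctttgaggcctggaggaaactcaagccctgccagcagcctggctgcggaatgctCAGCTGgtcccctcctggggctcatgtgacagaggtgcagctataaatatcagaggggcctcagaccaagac

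Trim54 chr5:31116362-31116611: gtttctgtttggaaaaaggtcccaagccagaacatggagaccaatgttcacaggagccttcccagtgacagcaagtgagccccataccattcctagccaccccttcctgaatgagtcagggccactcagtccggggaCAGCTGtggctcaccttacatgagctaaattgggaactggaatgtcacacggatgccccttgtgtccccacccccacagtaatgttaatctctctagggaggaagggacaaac

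The Foxo motif GTAAACA, read on both strands, lay 194 bases before the start of Trim63 on the minus strand and in no other promoter among the 7 members. It occurs in 3.65% of the 32851 promoter windows of the same length (250 bases before to 50 after the start). The glucocorticoid receptor half-site pair ACANNNTGT lay 206 bases before the start of Trim63 and occurs in 6.85% of the windows. The E-box CAGCTG, a sequence bound by myogenin and its relatives, lay 72 bases before the start of Trim63, 113 bases before that of Trim54 and in both promoters of Fbxo40, and occurs in 16.3% of the windows. The RefSeq start used for Trim54 lies 100 bases upstream of the GENCODE gene start, while for Trim63 the 2 starts coincide. The MEF2 motif, CTA and TAG with 4 bases between them, present in 3.69% of the windows, had no match among the members. These matches describe letters in the window and no binding was measured. Promoters of Fbxo32, Trim55 and Foxo4 were not analysed here.

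Trim63 measured 280, 274, 257 and 239 CPM in the WT_PBS mice and 414, 471, 365 and 434 CPM in the KO_PBS mice. The KO_ASO mice had 316, 326, 287 and 272 CPM, and the WT_ASO mice had 357, 437, 393 and 191 CPM. The KO_PBS values lay above those of WT_PBS and KO_ASO in every mouse, while WT_ASO overlapped every group, with the lowest value of the 16 in mouse 4 and 2 of its mice within the range of KO_PBS. The log2FC was 0.68 for KO_PBS vs WT_PBS (SE 0.18, 95% interval 0.31 to 1.06, edgeR adjusted P = 0.0195), and it ranked 1070 of 14960 by P value. The call was lost when WT_PBS replicate 4 (edgeR adjusted P = 0.0624) or KO_PBS replicate 2 (edgeR adjusted P = 0.051) was left out, with log2FC values of 0.64 and 0.63, and it held without any of the other 14 mice.

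**Figure D1:**
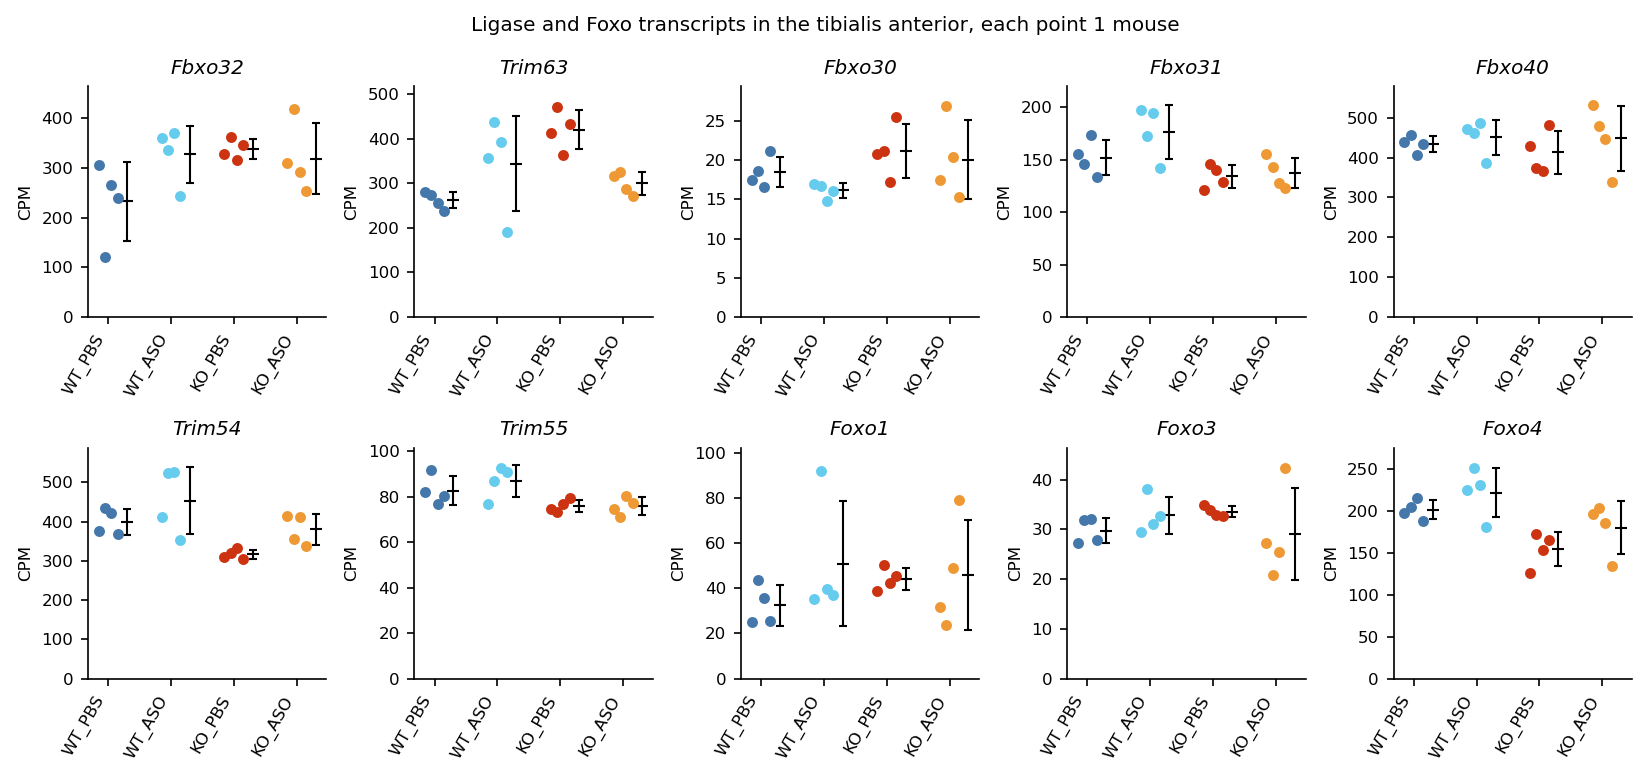
Level of each of the 10 members in CPM (y axis, from 0), with 1 point per mouse in the 4 groups (x axis) and a bar for the mean ± SD of 4 mice. Trim63 sits at 365 to 471 CPM in KO_PBS, above the 239 to 280 CPM of WT_PBS, and 1 WT_ASO mouse stands apart for Foxo1 at 92.3 CPM.

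Fbxo32 (ENSMUSG00000022358, chromosome 15, 58175879 to 58214932, minus strand) encodes MAFbx, the substrate-binding F-box subunit of an SCF ligase. It measured 305, 120, 265 and 240 CPM in WT_PBS and 328, 361, 315 and 345 CPM in KO_PBS. WT_ASO mice had 359, 336, 370 and 243 CPM, and KO_ASO mice had 309, 419, 292 and 253 CPM. The lowest KO_PBS mouse was only just above the highest WT_PBS mouse, and WT_PBS mouse 2 was the lowest of the 16. The spread in WT_PBS, 233 ± 79.7 CPM (SD, n = 4), was wider than in KO_PBS, 337 ± 20.1 CPM (SD, n = 4). The log2FC was 0.54 for KO_PBS vs WT_PBS (SE 0.22, 95% interval 0.06 to 1.01), and fell short of a call (edgeR adjusted P = 0.131). Without WT_PBS replicate 2 it was 0.32.

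Trim54 (ENSMUSG00000062077, chromosome 5, 31116712 to 31137630, plus strand) and Trim55 (ENSMUSG00000060913, chromosome 3, 19644474 to 19692421, plus strand) encode MuRF3 and MuRF2, sarcomeric and microtubule-associated relatives of MuRF1. Trim54 measured 375, 434, 423 and 368 CPM in WT_PBS and 309, 321, 332 and 306 CPM in KO_PBS. It measured 415, 356, 412 and 337 CPM in KO_ASO and 412, 523, 526 and 354 CPM in WT_ASO. Its KO_PBS values were the 4 lowest of the 16 mice and the tightest of any group, at 317 ± 11.8 CPM (SD, n = 4). The log2FC was -0.34 for KO_PBS vs WT_PBS (SE 0.12, 95% interval -0.59 to -0.09), short of the threshold with edgeR (adjusted P = 0.0719) and past it with DESeq2 (adjusted P = 0.0442). Trim55 was 82.6 ± 6.32 CPM in WT_PBS, 86.7 ± 7.05 in WT_ASO, 75.9 ± 2.71 in KO_PBS and 75.8 ± 4.00 in KO_ASO (SD, n = 4 each). It varied least of the members between mice, and its log2FC was -0.12 for KO_PBS vs WT_PBS (SE 0.08, edgeR adjusted P = 0.325).

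The 3 MuRF transcripts were also set against each other within a sample, a ratio of read counts that does not depend on scaling between libraries. This ratio was chosen after the values were seen and is given without a test. Trim63 over Trim54 was 0.746, 0.631, 0.606 and 0.649 in WT_PBS and 1.34, 1.47, 1.1 and 1.42 in KO_PBS. It was 0.760, 0.915, 0.696 and 0.809 in KO_ASO and 0.868, 0.837, 0.747 and 0.540 in WT_ASO. The ratio was above 1 in each KO_PBS mouse and below 1 in each mouse of the other groups, and since it is not per length it does not say which transcript was the more abundant. Trim63 over Trim55 was 4.75 to 6.44 in KO_PBS, 2.98 to 3.41 in WT_PBS and 3.52 to 4.60 in KO_ASO, while WT_ASO ranged from 2.11 to 5.03 and overlapped all of them. The ratio of Trim63 to Fbxo32 did not set KO_PBS apart, at 1.16 to 1.30 beside 0.916 to 2.28 in WT_PBS.

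**Figure D2:**
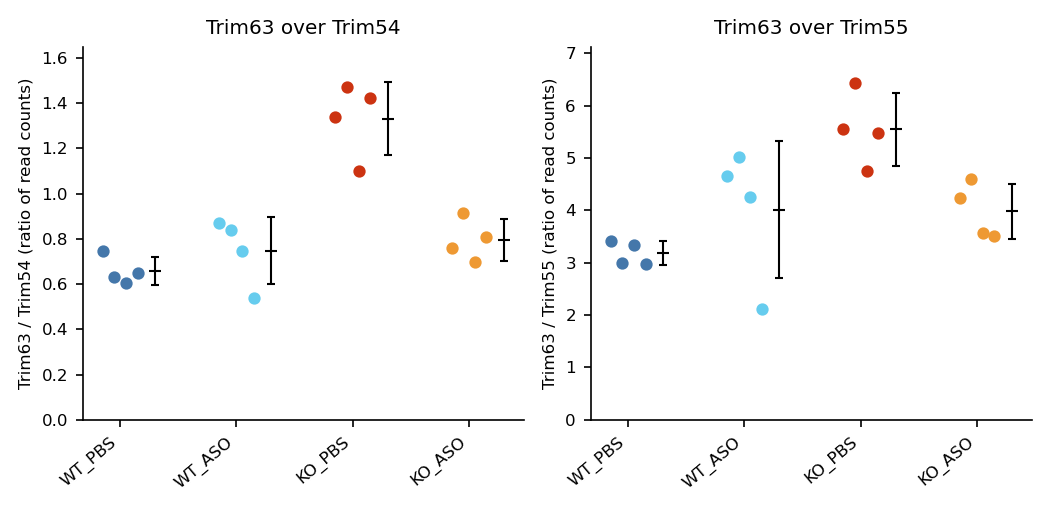
Ratio of Trim63 to Trim54 read counts (left) and of Trim63 to Trim55 read counts (right) on axes from 0, with 1 point per mouse and bars for the mean ± SD of 4 mice. On the left KO_PBS lies at 1.1 to 1.47, above every other mouse (0.540 to 0.915), and on the right it overlaps WT_ASO.

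Of the other F-box members, Fbxo30 (ENSMUSG00000047648, chromosome 10, 11281330 to 11298052, plus strand) encodes MUSA1, a ligase induced in muscle when BMP signalling falls. It was low throughout, at 16.6 to 21.1 CPM in WT_PBS, 14.8 to 17.0 in WT_ASO, 17.2 to 25.5 in KO_PBS and 15.3 to 26.9 in KO_ASO. Fbxo31 (ENSMUSG00000052934, chromosome 8, 121549440 to 121578806, minus strand) is a cell cycle F-box gene. It measured 152 ± 16.6 CPM in WT_PBS, 176 ± 25.6 in WT_ASO, 134 ± 11.4 in KO_PBS and 137 ± 14.3 in KO_ASO (SD, n = 4 each). Fbxo40 (ENSMUSG00000047746, chromosome 16, 36963460 to 36990467, minus strand) is a muscle F-box gene whose product removes Irs1, an adaptor of the insulin receptor. It measured 434 ± 21.1, 451 ± 43.8, 413 ± 53.4 and 449 ± 81.9 CPM in the same order. For KO_PBS vs WT_PBS the log2FC was 0.20 for Fbxo30 (95% interval -0.12 to 0.51, edgeR adjusted P = 0.428), -0.18 for Fbxo31 (-0.42 to 0.06, adjusted P = 0.326) and -0.07 for Fbxo40 (-0.33 to 0.19, adjusted P = 0.769). The groups overlapped for these 3 genes, and the 95% interval for Fbxo40 covers changes from -0.33 to 0.19 under TMM scaling.

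Foxo1 (ENSMUSG00000044167, chromosome 3, 52268336 to 52353221, plus strand) and Foxo3 (ENSMUSG00000048756, chromosome 10, 42181841 to 42276755, minus strand) are the Foxo factors most studied in atrophy. Foxo1 measured 24.9, 43.8, 35.9 and 25.5 CPM in WT_PBS and 39.0, 50.2, 42.2 and 45.6 CPM in KO_PBS. It measured 31.6, 23.7, 49.2 and 79.1 CPM in KO_ASO and 35.1, 92.3, 39.6 and 37.2 CPM in WT_ASO. The ranges of KO_PBS and WT_PBS overlapped, and the 2 oligonucleotide groups each held 1 mouse well above the rest of its group. The log2FC was 0.45 for KO_PBS vs WT_PBS (SE 0.36, 95% interval -0.33 to 1.23, edgeR adjusted P = 0.471), so a change of either sign was possible at this spread. Foxo3 was 29.8 ± 2.45 CPM in WT_PBS and 33.6 ± 1.02 CPM in KO_PBS (SD, n = 4 each). Its groups did not overlap (highest WT_PBS 32.0 and lowest KO_PBS 32.7 CPM), but the log2FC of 0.18 (SE 0.16) fell short of the call (edgeR adjusted P = 0.509).

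Foxo4 (ENSMUSG00000042903, chromosome X, 101254528 to 101260873, plus strand) had a fitted change of the opposite sign. It measured 198, 205, 215 and 188 CPM in WT_PBS and 126, 172, 154 and 165 CPM in KO_PBS. It measured 196, 204, 186 and 134 CPM in KO_ASO and 225, 251, 231 and 181 CPM in WT_ASO. The KO_PBS mice were below every wild-type mouse, and KO_ASO mouse 4 was within their range. The log2FC was -0.39 for KO_PBS vs WT_PBS (SE 0.13, 95% interval -0.67 to -0.11), short of the threshold with edgeR (adjusted P = 0.0651) and past it with DESeq2 (adjusted P = 0.0401).

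What the oligonucleotide changed in knockout muscle was read from KO_ASO vs KO_PBS. No member was called by edgeR or DESeq2, where 3.64% of all genes were called by edgeR and 7.07% by DESeq2. The unadjusted P value was under 0.05 for 2 of 10 members, beside 17.7% of all genes, and the groups did not overlap for 2 of 10, Trim63 and Trim54, beside 10.4% of all genes. Trim63 was at 0.713 of its KO_PBS level, a log2FC of -0.49 (SE 0.18, 95% interval -0.86 to -0.11, edgeR adjusted P = 0.145). Trim54 was at 1.20 of it, a log2FC of 0.26 (SE 0.12, 95% interval 0.01 to 0.51, edgeR adjusted P = 0.252). This comparison reads the same 4 KO_PBS mice as the one before it, so the signs of the 2 comparisons are not independent. Without WT_ASO replicate 4, which enters the shared estimate of the spread, Trim63 passed the threshold (edgeR adjusted P = 0.0123), and without KO_ASO replicate 4 Foxo3 did, with a log2FC of -0.45 (edgeR adjusted P = 0.0223).

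For the other 8 members of this comparison, the log2FC lay between -0.21 for Foxo3 (edgeR adjusted P = 0.531) and 0.22 for Foxo4 (adjusted P = 0.416). Fbxo32 was at -0.08 with a 95% interval of -0.56 to 0.39, and Trim55 had the narrowest interval, -0.16 to 0.16. Foxo1 had the widest, -0.73 to 0.83.

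**Figure D3:**
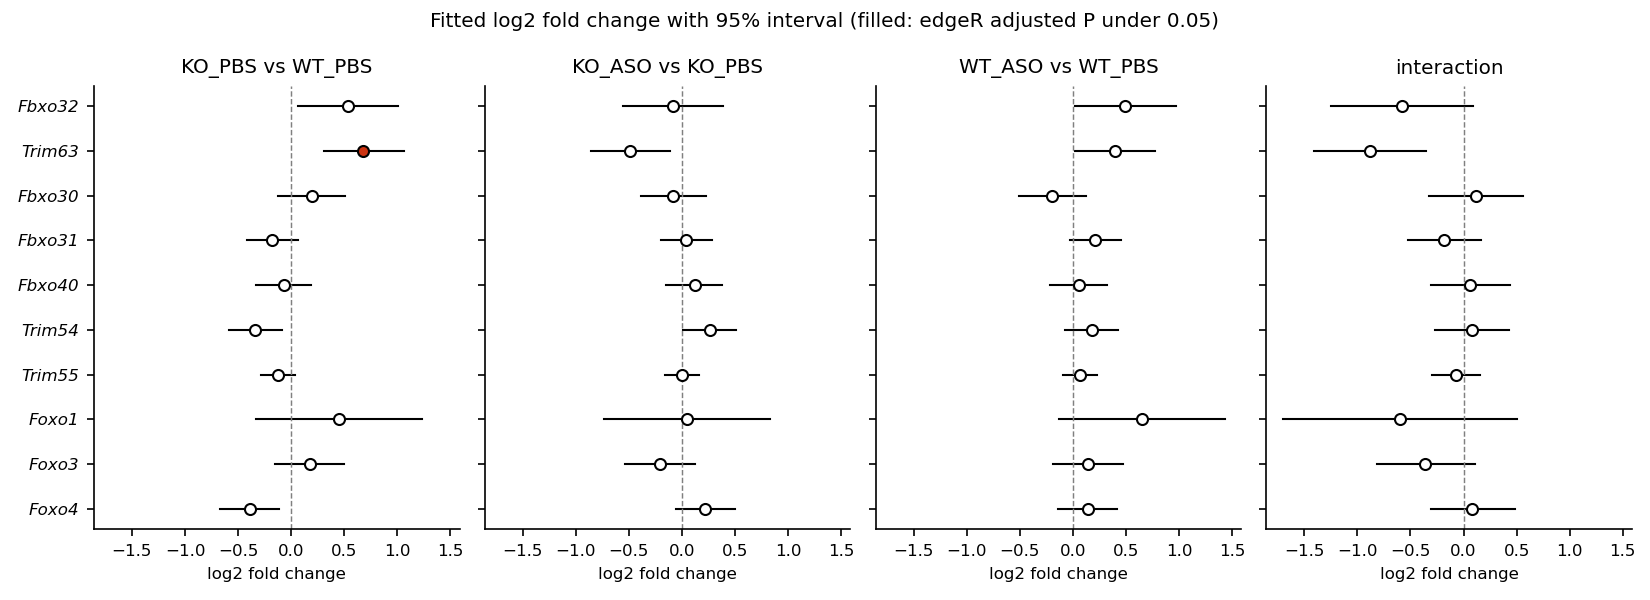
Fitted log2FC of each member (x axis) with its 95% interval in 4 contrasts, where the filled point marks an edgeR adjusted P value under 0.05. The 1 filled point is Trim63 in KO_PBS vs WT_PBS at 0.68, and Foxo1 has the widest interval in each panel.

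In wild-type mice the oligonucleotide was assessed by WT_ASO vs WT_PBS. No member was called by edgeR or DESeq2. Of all genes, 0.00668%, the single gene Dnm2, were called by edgeR and 0.221% by DESeq2. The fitted change was positive for 9 of 10 members with a median log2FC of 0.16, beside 0.00 over all genes. The unadjusted P value was under 0.05 for 2 of 10 members, Fbxo32 and Trim63, beside 6.45% of all genes. Foxo1 had a log2FC of 0.65 (95% interval -0.13 to 1.43), which was 0.20 without WT_ASO replicate 2. Fbxo32 had one of 0.49 (0.02 to 0.97, edgeR adjusted P = 0.763), or 0.28 without WT_PBS replicate 2, and Trim63 one of 0.40 (0.02 to 0.77, edgeR adjusted P = 0.761). None of the 10 members separated the groups, beside 3.22% of all genes.

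The difference between the oligonucleotide effect in knockout and in wild-type mice was tested as an interaction, (KO_ASO - KO_PBS) - (WT_ASO - WT_PBS). Trim63 had the largest value, a log2FC of -0.88 (SE 0.25, 95% interval -1.41 to -0.35), which did not pass edgeR's threshold (adjusted P = 0.138) and passed that of DESeq2 (adjusted P = 0.0354). Without WT_ASO replicate 4, the mouse with 191 CPM, the value was -1.08 and passed with edgeR (adjusted P = 0.00641). Fbxo32 was at -0.58 (95% interval -1.25 to 0.09) and Foxo1 at -0.60 (-1.70 to 0.50), with -0.36 for Fbxo32 without WT_PBS replicate 2 and -0.15 for Foxo1 without WT_ASO replicate 2. By edgeR 0 of 10 members were called, beside 0.575% of all genes, 1 had an unadjusted P value under 0.05, beside 12.7%, and DESeq2 called 1, beside 2.68%.

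Treated knockout mice were compared with both wild-type groups. In KO_ASO vs WT_PBS, 0 of 10 members were called by edgeR or DESeq2 (0.0401% of all genes by edgeR and 0.636% by DESeq2). Of the members, 0 had an unadjusted P value under 0.05 (8.22% of all genes) and 0 separated the groups (5.39%). The log2FC was 0.20 for Trim63 (95% interval -0.18 to 0.57), 0.45 for Fbxo32 (-0.02 to 0.93, and 0.24 without WT_PBS replicate 2), -0.07 for Trim54 (-0.32 to 0.17) and -0.16 for Foxo4 (-0.44 to 0.11). These intervals still include changes of the size seen between KO_PBS and WT_PBS for Fbxo32 and Foxo4. In KO_ASO vs WT_ASO, the fitted change was negative for 9 of 10 members, with a median log2FC of -0.19. Over all genes the median was 0.00 and 50.5% were higher. This comparison reads the same WT_ASO mice as WT_ASO vs WT_PBS, so the signs of these comparisons are not independent. Of the members, 0 were called by edgeR or DESeq2 (0.0735% of all genes by edgeR and 3.2% by DESeq2). The unadjusted P value was under 0.05 for 4 of 10, beside 15.1% of all genes, led by Fbxo31 at -0.36 (SE 0.11, edgeR adjusted P = 0.175), and 0 separated the groups, beside 6.97%.

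The rest of the pathway was followed in 8 lists with 140 genes written from general knowledge. In KO_PBS vs WT_PBS edgeR called 20 of them, 14.3%, beside 12.6% of all genes, DESeq2 called 32, beside 16.9%, and 44 had an unadjusted P value under 0.05, beside 27.3% of all genes. Of the 20 calls, 10 held under all 22 alternatives. Among 15 Foxo target genes of muscle 3 rose and 0 fell, with a median log2FC of -0.05. Gadd45a, a stress gene of denervated muscle, rose by 0.99 (SE 0.17, edgeR adjusted P = 0.00113), Gabarapl1, an autophagosome protein, by 0.69 (SE 0.15, adjusted P = 0.00611) and Ctsl, a lysosomal protease, by 0.40 (SE 0.09, adjusted P = 0.00697). Pdk4, a mitochondrial kinase gene that Foxo1 induces, had 649 to 1370 CPM in WT_PBS and 975 to 2260 CPM in KO_PBS, a log2FC of 0.72 (SE 0.33) that did not pass (edgeR adjusted P = 0.168). The calls of Gadd45a, Gabarapl1 and Ctsl held under all 22 alternatives. The macrophage marker sum was also higher in KO_PBS, with 7 of 8 markers called, and its part in the value of Ctsl was not tested.

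Upstream of the Foxo factors, 0 of 17 genes of insulin and Akt signalling rose and 1 fell, Sgk1, at -0.62 (SE 0.19, edgeR adjusted P = 0.0452), a kinase that phosphorylates Foxo factors as Akt does. The median of this list was -0.18, and the call of Sgk1 was lost under 11 of 22 alternatives. Among 19 regulators of ligase transcription 3 rose and 1 fell. Myog, the myogenin gene, rose most of all, from 3.22, 4.25, 3.22 and 2.51 CPM in WT_PBS to 28.9, 22.0, 21.1 and 13.4 CPM in KO_PBS (log2FC 2.70, SE 0.32, edgeR adjusted P = 6.89e-05). It was 8.58, 17.2, 7.23 and 17.4 CPM in KO_ASO, which overlaps KO_PBS and lies above WT_PBS, and 3.01 to 5.75 CPM in WT_ASO. Hdac4, a deacetylase that acts with myogenin in denervated muscle, rose by 0.54 (SE 0.13, adjusted P = 0.0107), and the coactivator Ep300 fell by 0.49 on the log2 scale (SE 0.08, adjusted P = 0.00137). Junb rose by 1.46 (SE 0.46, adjusted P = 0.0491), but it overlaps Prdx2 on the opposite strand, which had 4450 reads on average beside 174 for Junb, and its call was lost under 12 of 22 alternatives.

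Genes of the ubiquitination machinery were called in both directions in KO_PBS vs WT_PBS, where 12.6% of all genes were called. Of 16 other ubiquitin ligases 2 rose, Trim72 (0.72, SE 0.13, edgeR adjusted P = 0.00175), a membrane repair ligase, and Fbxl22 (0.86, SE 0.25, adjusted P = 0.0344), an F-box gene of the sarcomere. Fbxl22 overlaps Herc1 on the opposite strand, which held 3040 reads beside its own 122. Ubr2 and Wwp1 each fell by 0.41 on the log2 scale (adjusted P values of 0.0187 and 0.0462). Of the 22 alternatives, 7 ended the call of Fbxl22, 4 that of Ubr2 and 11 that of Wwp1. Of 19 SCF core, ubiquitin and E2 genes 1 was called, Rbx1, the RING subunit of SCF ligases, which fell by 0.39 (SE 0.07, adjusted P = 0.00195). Of 33 proteasome subunits 2 rose, Psmd11 by 0.37 (SE 0.08, adjusted P = 0.00943) and Psmd14 by 0.28 (SE 0.08, adjusted P = 0.0299, lost under 6 of 22 alternatives), with a list median of 0.10. With library totals in place of TMM scaling, which moved the median of all genes to 0.14, 17 of the 33 were called, beside 14.7% of all genes.

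Among 13 substrates and partners of the ligases 3 rose and 1 fell. Des, which encodes the intermediate filament desmin, a target of Trim32, was 2390 to 3060 CPM in WT_PBS and 4380 to 5270 CPM in KO_PBS (log2FC 0.75, SE 0.10, edgeR adjusted P = 0.000118). Vim rose by 0.79 (SE 0.25, adjusted P = 0.046) and the autophagy receptor gene Nbr1 by 0.27 (SE 0.08, adjusted P = 0.0367). The fast troponin gene Tnni2 fell by 0.37 (SE 0.10, adjusted P = 0.0276). The call was lost under 11 of 22 alternatives for Vim, 7 for Nbr1 and 5 for Tnni2. Vim is also expressed by fibroblasts and macrophages, and the macrophage marker sum was higher in KO_PBS. The sum of 6 fibroblast markers was 1030 to 1760 CPM in KO_PBS and 763 to 1040 CPM in WT_PBS. These ranges overlapped, and 3 of the 6 were called higher. The part of these cells in the value of Vim was not tested. Of 8 glucocorticoid response genes 0 rose and 1 fell, Hsd11b1 at -0.56 (SE 0.17, adjusted P = 0.0383), a call lost under 9 of 22 alternatives. Klf15, a glucocorticoid target that induces Trim63 and Fbxo32, had a log2FC of -0.16 (SE 0.20, adjusted P = 0.641), and Fkbp5 one of 0.23 (SE 0.41, adjusted P = 0.769).

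**Figure D4:**
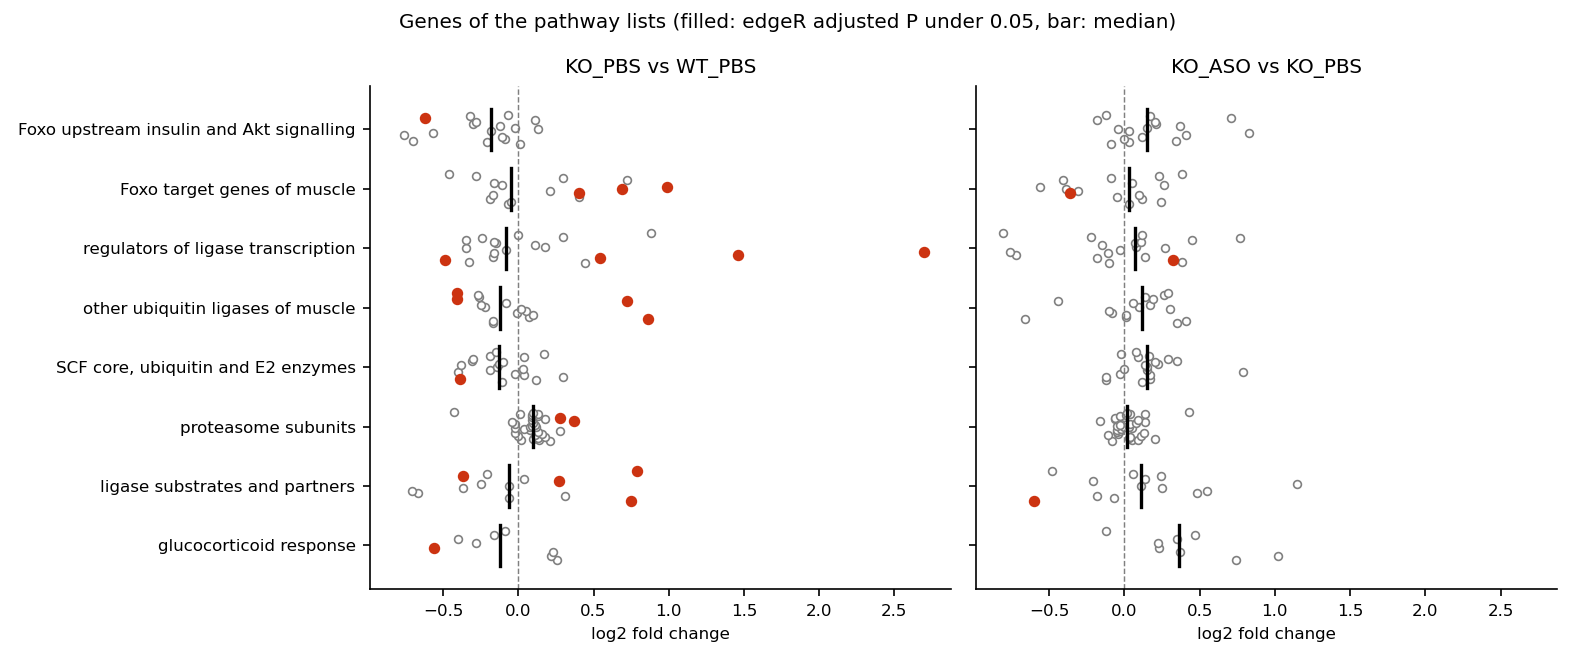
Fitted log2FC (x axis) of the genes of 8 pathway lists (rows) for KO_PBS against WT_PBS (left) and KO_ASO against KO_PBS (right), with filled points for an edgeR adjusted P value under 0.05 and a bar at the list median. Most points are open and lie on both sides of 0, and Myog is farthest to the right of the left panel at 2.70.

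In KO_ASO vs KO_PBS edgeR called 3 of the 140 pathway genes, 2.14%, beside 3.64% of all genes, and DESeq2 called 8 (7.07% of all genes). An unadjusted P value under 0.05 was found for 30, beside 17.7% of all genes. Des fell by 0.60 (SE 0.10, edgeR adjusted P = 0.00303) to 2960 to 3360 CPM, under all 22 alternatives, Ctsl fell by 0.36 (SE 0.09, adjusted P = 0.0345) and Ep300 rose by 0.32 (SE 0.08, adjusted P = 0.043). The calls of Ctsl and Ep300 were lost under 7 and 13 of 22 alternatives. The macrophage marker sum was lower in KO_ASO than in KO_PBS, with 5 of 8 markers called lower, and its part in the fall of Ctsl was not tested. Myog had a log2FC of -0.76 (SE 0.29, adjusted P = 0.174). In WT_ASO vs WT_PBS 0 of 140 were called by edgeR, beside 0.00668% of all genes, and DESeq2 called 4 (0.221% of all genes). The unadjusted P value was under 0.05 for 31 of them, beside 6.45% of all genes. In KO_ASO vs WT_PBS 1 was called (0.0401% of all genes), Myog at 1.94 (SE 0.31, edgeR adjusted P = 0.0418), a call lost under 14 of 22 alternatives, and DESeq2 called 2 (0.636% of all genes). In KO_ASO vs WT_ASO 1 was called (0.0735% of all genes), the ubiquitin gene Ubb at -0.45 (SE 0.08, adjusted P = 0.0499), lost under 19 of 22, and DESeq2 called 10 (3.2% of all genes).

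The spread between mice of the same group differed widely among the members. The pooled SD of log2 CPM was 0.55 for Foxo1, 0.37 for Fbxo32, 0.29 for Trim63 and 0.24 for Foxo3, beside a median of 0.15 over the 7172 genes with at least 10 CPM. Of those genes, 98.1% varied less than Foxo1 and 93.6% less than Fbxo32. Trim55, at 0.09, varied more than only 12.6% of them. The other members had SDs of 0.17 to 0.23.

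Whether mice with more Foxo1 also had more of the ligases was examined after the group means were removed, over 16 mice and 3 pairs with two-sided permutation tests (100000 permutations within groups). Fbxo32 and Trim63 had a Pearson r of 0.40 (permutation P = 0.067, 0.153 after adjustment over 3 pairs) and a Spearman rho of 0.56 (permutation P = 0.0164, adjusted 0.0491). Without WT_ASO mouse 4 and WT_PBS mouse 2, the 2 farthest from the median of the Fbxo32 deviations, r was 0.62 (permutation P = 0.0094). It was 0.76 without WT_PBS replicate 2 alone and 0.17 without WT_ASO replicate 4 alone. Foxo1 and Fbxo32 had an r of -0.46 and a rho of -0.48 (permutation P = 0.102 and 0.107, adjusted 0.153 and 0.16), and r was -0.61 (permutation P = 0.0625) without the 2 mice farthest from the median of Foxo1. Foxo1 and Trim63 had an r of 0.19 and a rho of -0.09 (permutation P = 0.607 and 0.752, the same after adjustment), and r was -0.01 without the 2 farthest. No positive relation of Foxo1 to either ligase was thus detected between mice of a group at this sample size.

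Foxo1 and Foxo3 had an r of 0.84 over the 16 deviations, the highest of all member pairs and a description without a test. For Foxo1 and Foxo4 it was -0.14, and for Foxo3 and Foxo4 it was -0.53. The glucocorticoid-responsive Fkbp5 is set beside Foxo1 and Foxo3 mouse by mouse. In WT_ASO mouse 2, Foxo1 was 92.3 CPM, Foxo3 was 38.1 CPM and Fkbp5 was 193 CPM, each the highest of its group. In KO_ASO mouse 4 the values were 79.1, 42.3 and 188 CPM, again the highest of the group, and in KO_ASO mouse 2 they were 23.7, 20.9 and 36.6 CPM, the lowest. In WT_PBS mouse 2 had the most Foxo1 and mouse 3 the most Fkbp5, with Foxo3 at 31.8 and 32.0 CPM in these mice, and in KO_PBS the highest was mouse 2 for Foxo1, mouse 1 for Foxo3 and mouse 4 for Fkbp5. Fbxo32 ran the other way in KO_ASO, at 253 CPM in mouse 4 and 419 CPM in mouse 2. It was also lowest of its group, at 120 CPM, in WT_PBS mouse 2. In KO_PBS mouse 2, which had the most Foxo1 of its group, Fbxo32 was the highest at 361 CPM. In WT_ASO mouse 2 it was 336 CPM, beside a group mean of 327 CPM.

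**Figure D5:**
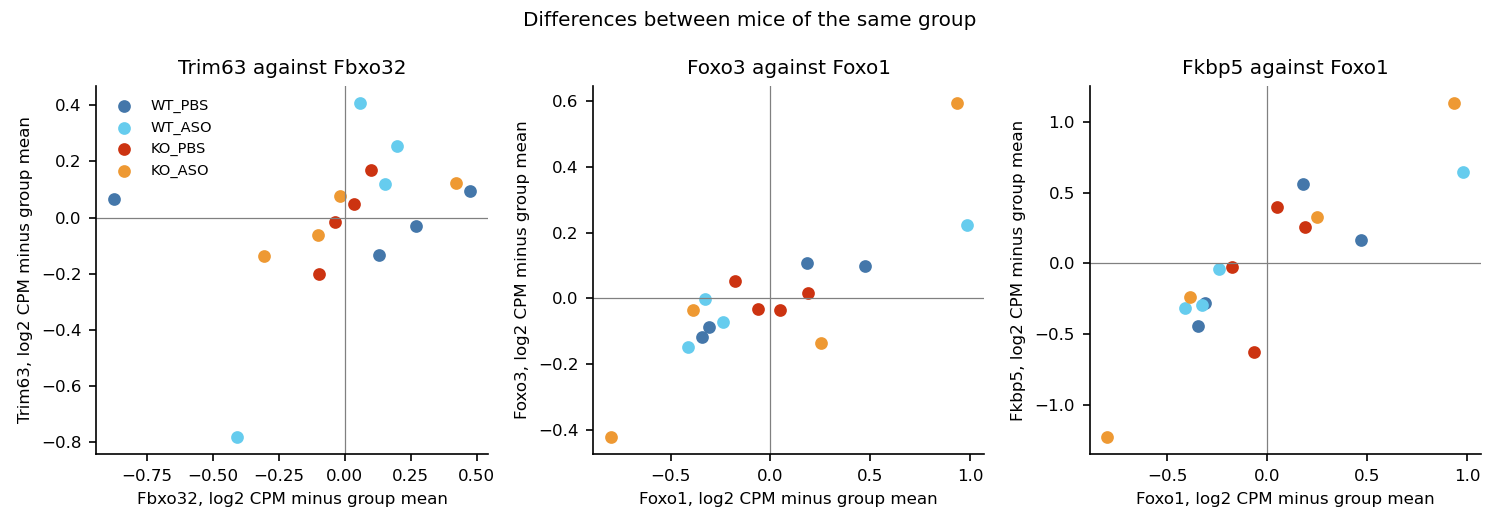
Deviation of each mouse from its group mean in log2 CPM, for Trim63 against Fbxo32, Foxo3 against Foxo1 and Fkbp5 against Foxo1, with 1 point per mouse coloured by group. WT_ASO mouse 2 and KO_ASO mouse 4 lie at the upper right for Foxo1, at 0.98 and 0.94, and WT_PBS mouse 2 lies at the far left for Fbxo32, at -0.87.

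The genes whose pattern between mice was most like that of Fbxo32, among 12113 genes with at least 1 CPM and with group means removed over 16 mice, were Gm14403 (Pearson r 0.84), the splicing factor gene U2af1 (0.83) and the kelch-like gene Klhl38 (0.81). Those most like Trim63 were Gzmm (0.87), a granzyme gene at 5.36 CPM, the cold-shock domain gene Ybx3 (0.87), at 742 CPM, and Catsper4 (0.85), a sperm channel gene at 2.46 CPM. These are the highest of many correlations and are given as a description. The 2 sets share no gene.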

How the data were processed

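For 16 tibialis anterior libraries the authors deposited counts of reads per gene, unnormalized. Tools listed in the submitters' processing notes, with no role given, are STAR 2.5.3a, HTSeq 0.6.1p1, Bowtie2 2.2.8 and cutadapt 1.10, on GRCm38 (mm10). The annotation release and the strand setting were not given in the sources used here, so reads of overlapping genes on opposite strands may be mixed. All 29730 identifiers matched GENCODE. Genes were filtered with filterByExpr (14960 kept, 14770 removed), scaled by TMM and fitted with the robust quasi-likelihood model of edgeR 4.0.16 (R 4.3.3), with 1 mean per group over all 16 samples and Benjamini-Hochberg adjustment over all genes tested, within a comparison. The common biological coefficient of variation was 18.7%. SE is the log2FC divided by the square root of F, and log2 CPM used a prior count of 2. DESeq2 1.42.0, other scalings, no filter, the compared groups alone, a replicate block and leaving out each sample were alternatives. Shares called by DESeq2 are over the genes with an adjusted P value from it. The statistics were tested on simulated data. For randomly picked genes in KO_PBS vs WT_PBS, the edgeR fit recovered 20.9% of 1.5-fold, 61.4% of 2-fold and 86.2% of 3-fold changes. A member without a call may thus still have changed. Named were the 10 members, up to 4 called genes per list by P value, Myog, Pdk4, Fkbp5, Klf15, Bin1, Dnm2 and the 3 genes most like Fbxo32 and Trim63. Members and lists were chosen with earlier results of these data known. No 2 libraries of a group agreed within sampling noise (chi-square per gene of at least 22.2 on average).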

Additional observations from a re-analysis of the deposited data

Results flagged for a closer look

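Foxo1 measured 92.3 CPM in WT_ASO mouse 2, while the other WT_ASO mice had 35.1 to 39.6 CPM. The gap was 0.922 of the range of the group, past Dixon's critical value at 95% for groups of 4. It was the 1 value singled out among 56 groups of 4 (14 genes in 4 groups), fewer than the 1 in 20 that chance would give.

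The oligonucleotide effect differed between knockout and wild-type mice, by the interaction test of edgeR, for 3 of the 140 pathway genes, 2.14%, beside 0.575% of all genes, and DESeq2 called 7, beside 2.68%. Des had a difference of -0.74 on the log2 scale (SE 0.14, adjusted P = 0.0234), Ctsl of -0.60 (SE 0.12, adjusted P = 0.0405) and Gadd45a of -1.11 (SE 0.23, adjusted P = 0.0437). Gadd45a was 12.2 to 20.6 CPM in WT_PBS, 20.4 to 31.6 in WT_ASO, 31.6 to 41.5 in KO_PBS and 19.7 to 26.8 in KO_ASO. Ctsl was 126 to 143, 140 to 182, 158 to 193 and 132 to 142 CPM in the same order. These calls were close to the threshold: leaving out 1 mouse ended that of Gadd45a in 13 of 16 cases (adjusted P up to 0.101), that of Ctsl in 12 (up to 0.103) and that of Des in 6 (up to 0.0666), with the sign kept in every case. Gadd45a and Des overlap a gene on the opposite strand with a mean of 32.3 and 460 reads, beside 897 and 121000 of their own.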

How the results depend on the processing

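Members called in KO_PBS vs WT_PBS went from 1 to 3 with DESeq2, in a fit of the 2 groups alone and under the replicate block, each time by adding Trim54 and Foxo4, while the calls over all genes went from 1878 to 2522, 2041 and 2322. The members called ran from 0 to 3 when 1 mouse was left out. Without WT_ASO replicate 4 the added calls were again Trim54 (edgeR adjusted P = 0.0357) and Foxo4 (0.0496), and without KO_ASO replicate 4 Foxo4 alone (0.0253). In KO_ASO vs KO_PBS the count was 1 with the compared groups alone (Trim63 at -0.48, edgeR adjusted P = 0.0382) and 0 to 1 with 1 mouse left out. For the interaction it was 1 with DESeq2 (Trim63) and 0 to 1 with 1 mouse left out. Replicate numbers were not taken to pair the samples, because that required a correlation of deviations over 0.1 in every same-numbered pair and 11 of 24 had one (-0.0777 to 0.435). That 13 of 16 samples correlated best with their own number is a hint of pairing from the data, not from the design. The main fit and the within-group correlations do not allow for such pairing. The replicate block gave 5 calls for the Foxo target list and 3 for SCF core, ubiquitin and E2 genes.

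Library totals in place of TMM moved the median of all genes to 0.1388 in KO_PBS vs WT_PBS and 0.1068 in KO_ASO vs WT_ASO. With them the log2FC reversed to 0.08 for Fbxo40 and 0.03 for Trim55 in KO_PBS vs WT_PBS, -0.06 for Fbxo31 and -0.04 for Foxo1 in KO_ASO vs KO_PBS, 0.02 for Foxo3 in KO_ASO vs WT_PBS, and 0.07 for Fbxo32 and 0.09 for Fbxo40 in KO_ASO vs WT_ASO. With the compared groups alone Trim55 was 0.002 in KO_ASO vs KO_PBS. None of these was called in either setting.

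With 1 mouse left out the sign changed, among uncalled members, in KO_ASO vs KO_PBS for Fbxo32 (-0.25 to 0.01), Fbxo30 (-0.26 to 0.03), Fbxo31 (-0.02 to 0.09), Trim55 (-0.04 to 0.02) and Foxo1 (-0.35 to 0.26). It changed in KO_ASO vs WT_PBS for Fbxo40 (-0.04 to 0.16), Fbxo30 (-0.06 to 0.23) and Foxo3 (-0.28 to 0.08), in KO_ASO vs WT_ASO for Fbxo32 (-0.20 to 0.06), Fbxo40 (-0.10 to 0.11) and Foxo1 (-0.55 to 0.30), and in the interaction for Fbxo40 (-0.03 to 0.18), Trim54 (-0.02 to 0.16), Foxo4 (-0.003 to 0.20) and Fbxo30 (-0.05 to 0.23).

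The correlation of Foxo1 and Trim63 was -0.01 without the 2 farthest mice and -0.13 to 0.35 with 1 left out. That of Fbxo32 and Trim63 was 0.62 and 0.17 to 0.76, and that of Foxo1 and Fbxo32 was -0.61 to -0.33 with 1 left out. The last passed the permutation test without WT_ASO replicate 4, at -0.58, and Fbxo32 with Trim63 passed it without WT_PBS replicate 2, at 0.76, and without the 2 farthest mice.

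Calls in the pathway lists for KO_PBS vs WT_PBS moved as follows. Insulin and Akt signalling had 2 with DESeq2 or the compared groups alone, 0 without a filter and 0 to 2 with 1 mouse left out. Foxo targets had 6 with DESeq2, 5 with the compared groups alone and 3 to 5 with 1 left out, and regulators of ligase transcription had 3 to 5. Other ligases had 2 with library totals and 1 to 5 with 1 left out. Proteasome subunits had 6 with DESeq2, 17 with library totals, 1 without a filter and 1 to 3 with 1 left out. Ligase substrates had 2 without a filter and 1 to 4 with 1 left out. Glucocorticoid genes had 0 with library totals, without a filter or with the compared groups alone, and 0 to 1 with 1 left out. The cause of these moves was not tested. Over all genes, calls ran from 1464 to 2522 in KO_PBS vs WT_PBS, 301 to 1056 in KO_ASO vs KO_PBS, 1 to 33 in WT_ASO vs WT_PBS, 4 to 95 in KO_ASO vs WT_PBS, 2 to 422 in KO_ASO vs WT_ASO and 68 to 385 in the interaction, apart from left-out mice. With 1 mouse left out they ran from 1005 to 2114, 199 to 829, 1 to 2, 4 to 11, 2 to 19 and 23 to 107 in the same order. By longest transcript, the level per length of 5 members moved by more than their SD, among them Trim63 to 139 CPM per kb.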

Other observations

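The genes most like Foxo1 between mice of a group, a search added after the values were seen, were the amino acid transporter gene Slc7a8 (Pearson r 0.91 over 16 mice), Mlf1 (0.91) and Hif3a (0.90). Slc7a8 had a mean of 23.6 CPM, Mlf1 of 238 CPM and Hif3a of 1.90 CPM. None of them is a member of the pathway lists.

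Satellite cell markers (Pax7, Myf5, Chrdl2 and Calcr) summed to 2.56 to 3.85 CPM in KO_PBS, below the 6.28 to 8.27 CPM of WT_PBS, and 3 of the 4 were called lower. Their sum was 3.47 to 5.88 CPM in KO_ASO and 5.40 to 7.67 CPM in WT_ASO. Endothelial markers had 1 of 6 called lower in KO_PBS, and adipocyte and Schwann cell markers had 0 of 5 called each.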
